A study of Mus musculus with 2 samples.

Results

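The accessible chromatin around 10 genes of retinal bipolar cells was examined in control and Ngn3-overexpressing (Ngn3-OE) late retinal progenitor cells (RPCs). The genes were Vsx1, Prdm8, Bhlhe23, Grm6, Trpm1, Cabp5, Pcp2, Irx6, Lhx4 and Scgn. A peak belonged to a gene when its summit, the position of its highest signal, lay in the gene body or within 50 kb of it. By this rule 117 of the 117165 control peaks and 123 of the 124935 Ngn3-OE peaks were members, in windows that summed to 1278 kb. The rule for a gene's peaks used positions alone, not the strength of a peak or its presence in both libraries.

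ATAC-seq maps open chromatin through the cuts that the Tn5 transposase makes in DNA free of nucleosomes. Mouse pups received a control plasmid or a plasmid for Ngn3 overexpression by in vivo electroporation of the retina at postnatal day 1, and GFP-positive electroporated cells were sorted at day 2 after electroporation, 50000 cells for each library. Each group had 1 library from 1 biological sample, so that no test of the condition was possible. The intervals below cover counting error only, except those of medians over peaks, which rest on the spread among peaks. None covers variation between biological samples. The mouse strain, the number of pups per library and the promoter of the plasmids are not given in the sources used here. Cells that took up no plasmid were left out by the sort, and the retinal layers were not separated.

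Bipolar cells are the interneurons that carry signals from photoreceptors to ganglion cells. Like rods and Müller glia, they arise late in retinal development from RPCs, and homeodomain, PRDM and basic helix-loop-helix factors set their subtypes. In the ON types, glutamate from photoreceptors acts on the receptor mGluR6, which through a G protein closes the cation channel TRPM1. Calcium-binding proteins such as CABP5 and secretagogin mark further subsets of mature bipolar cells.

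The libraries were first compared with their labels. No control peak lay within 10 kb of Neurog3, where the Ngn3-OE list had 1 peak of 1591 tags (chr10:62133456-62134106). Tags from the plasmid and from the gene cannot be told apart. All 7 progenitor markers had a peak within 1 kb of a start site in both libraries, and 2 of 4 microglial, 2 of 4 endothelial and 1 of 4 pigment epithelial markers did so in each. Cx3cr1, Csf1r, Cdh5, Pecam1, Rpe65, Best1 and Tyr had no such peak in either library. Called peaks had a median of 9 tags at the summit in both libraries, with lower quartiles of 6 in control and 5 in Ngn3-OE. These values do not give the read depth. A tag here is 1 unit of the pileup of sequenced fragments at the summit, as recovered from the peak caller's values.

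Peaks at the bipolar cell genes were mostly common to both libraries. Of the control peaks, 93 overlapped an Ngn3-OE peak and 24 were control-only, which is 20.5% (95% Wilson interval 14.2 to 28.7) beside 21.7% of all control peaks. Of the Ngn3-OE peaks, 93 overlapped a control peak and 30 were Ngn3-OE-only, or 24.4% (17.7 to 32.7), beside 26.6% of all Ngn3-OE peaks. Both shares were thus close to those of the whole lists, and the differences of -1.19 percentage points (-7.51 to 7.01) in control and -2.24 points (-8.98 to 6.05) in Ngn3-OE had intervals that included 0. Among peaks with a −log10 q of at least 5, 5 of 80 were control-only (6.25%, beside 7.89% of all such peaks) and 10 of 85 were Ngn3-OE-only (11.8%, beside 10.3%).

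**Figure D1:**
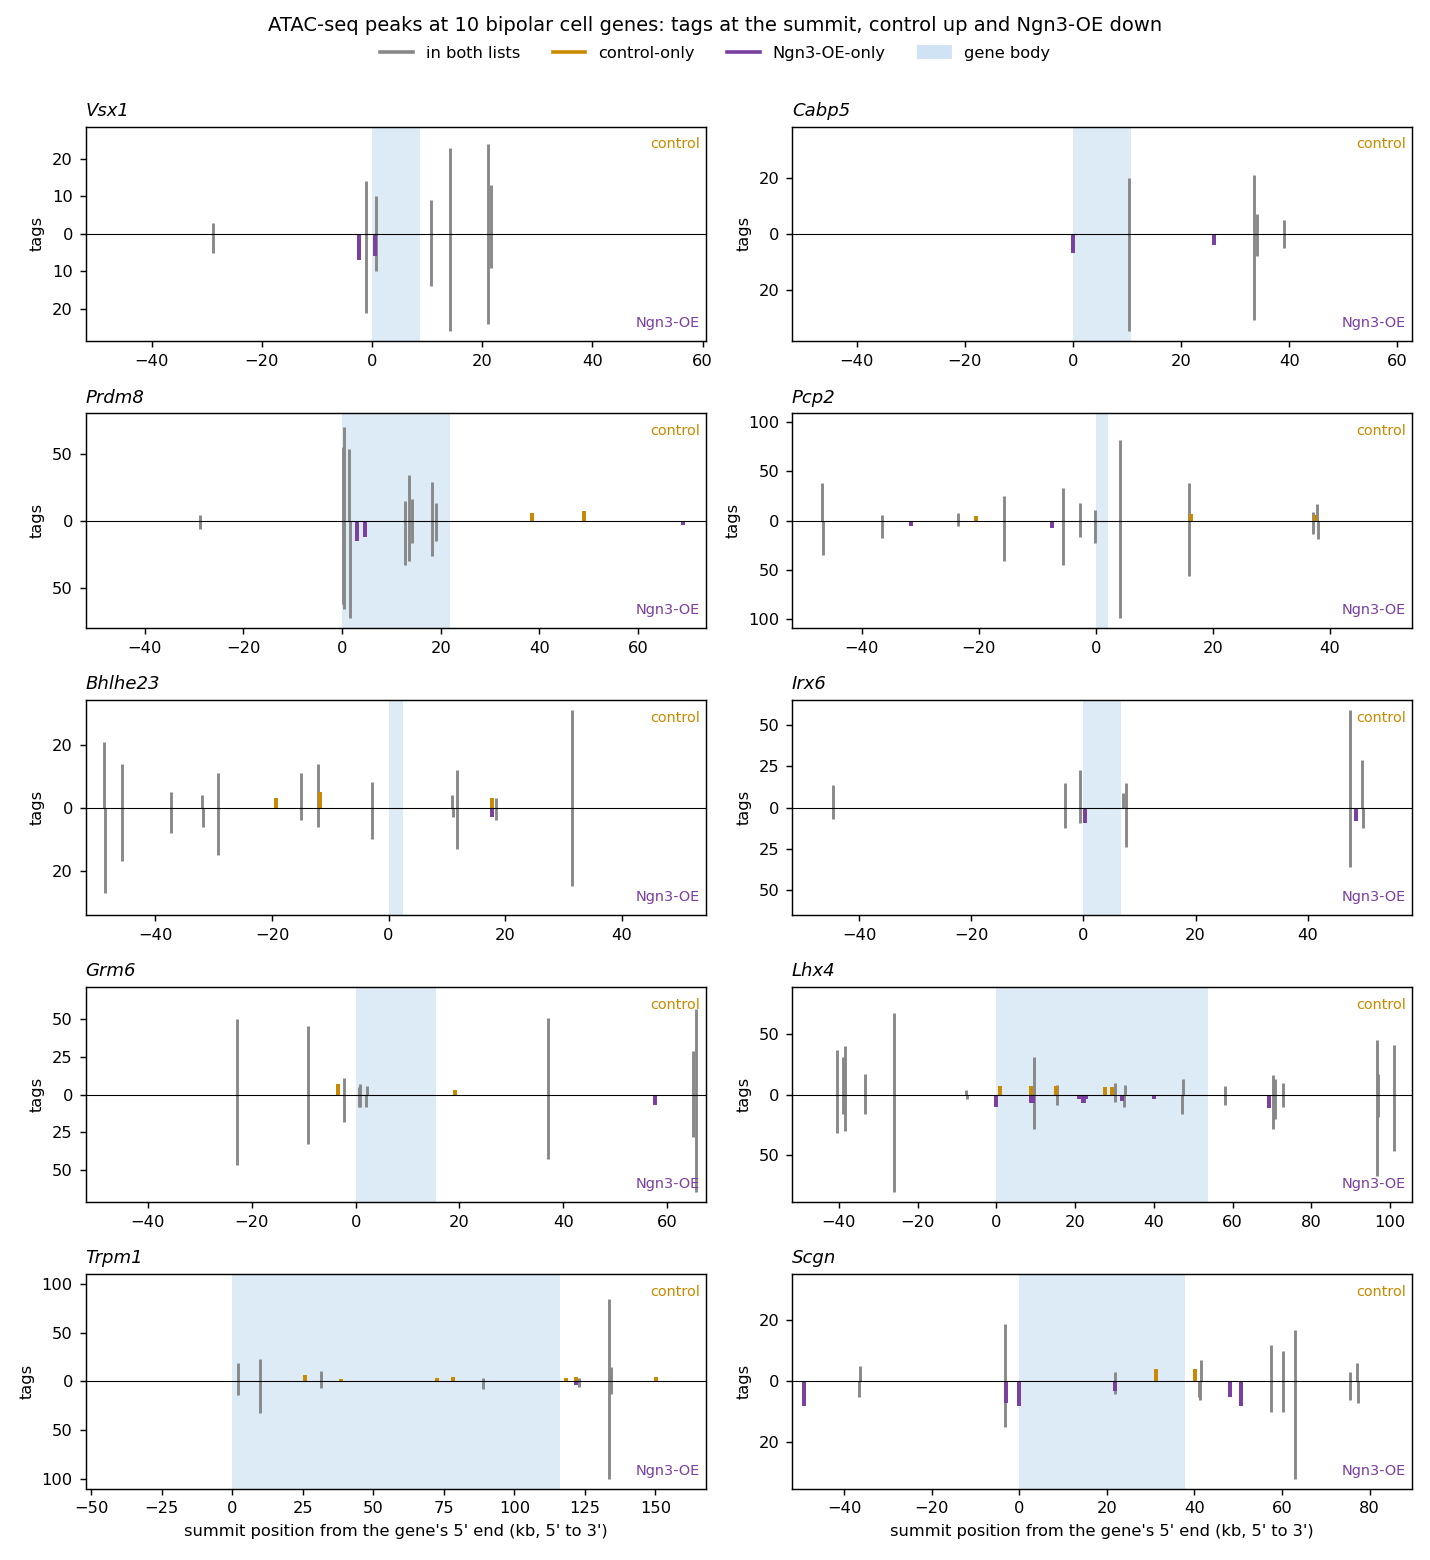
Tags at the summit of every peak (vertical axis, control upwards and Ngn3-OE downwards) against the distance of the summit from the 5′ end of the gene in kb (horizontal axis), in 1 panel for each of the 10 genes. Grey lines are peaks found in both lists, orange lines control-only and purple lines Ngn3-OE-only peaks, and the one-library peaks are short, with at most 7 tags in control and 15 in Ngn3-OE.

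The peaks found in 1 library were weak. Control-only peaks held 3 to 7 tags with a median of 5, and Ngn3-OE-only peaks held 3 to 15 tags with a median of 7, while the shared control peaks had a median of 14 tags. Over the whole lists the medians were 5, 5 and 11 tags in the same order, so weak one-library peaks were not particular to these genes. Each peak was given a rank percentile within its library by −log10 q, so that 100 stands for the top of the list. None of the 65 control peaks at a rank percentile of 50 or more was control-only, which allows a share of up to 4.62% (3 counts of 65; the Wilson interval ends at 5.58%), beside 3.57% of all control peaks of that rank. In Ngn3-OE 3 of 67 such peaks were Ngn3-OE-only (4.48%, 1.53 to 12.4), beside 4.41% of all. These 3 were 1 peak at Lhx4 and 2 at Scgn.

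The genes differed in how the one-library peaks were divided. Ngn3-OE-only peaks outnumbered control-only peaks at 6 genes (Vsx1, Prdm8, Cabp5, Irx6, Lhx4 and Scgn) and were fewer at 4 (Bhlhe23, Grm6, Trpm1 and Pcp2). The whole lists had the same excess, with 33270 Ngn3-OE-only and 25424 control-only peaks, so more Ngn3-OE-only peaks at a gene is not particular to these genes. Lhx4 had the most Ngn3-OE-only peaks, with 10 of 28, and 5 control-only peaks of 23. Scgn had 6 Ngn3-OE-only peaks of 16 and 2 control-only peaks of 11. The reverse was seen at Trpm1, where 7 of 14 control peaks and 1 of 8 Ngn3-OE peaks were found in 1 library. At the remaining 7 genes each library had 0 to 3 one-library peaks. When only peaks reaching a −log10 q of 5 were kept, those of Ngn3-OE alone outnumbered those of control alone at 4 genes (Cabp5, Irx6, Lhx4 and Scgn), Prdm8 turned to 2 control-only peaks and 0 Ngn3-OE-only, Trpm1 had 1 and 0, and the other 4 genes had equal numbers. With 10 kb on each side Pcp2 turned to 0 control-only peaks and 1 Ngn3-OE-only.

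**Figure D2:**
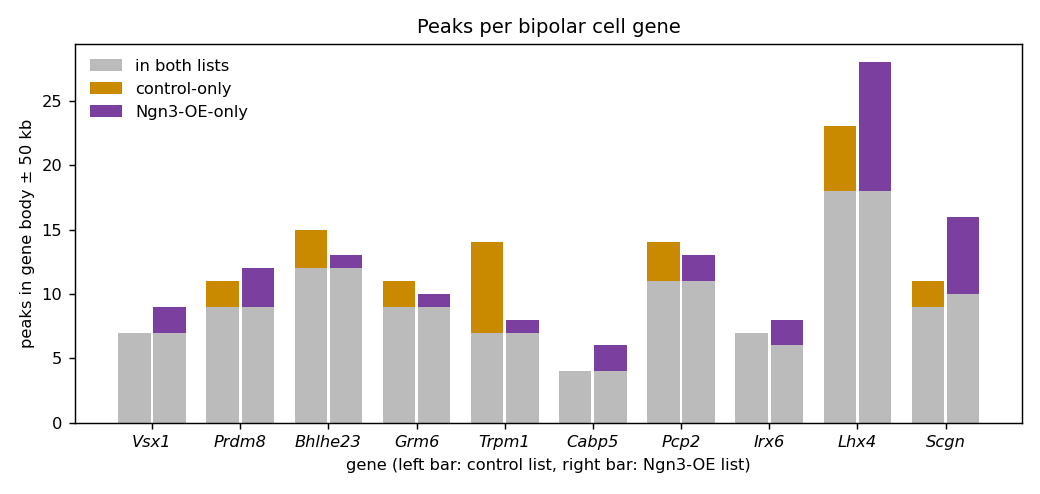
Number of peaks in the gene body and 50 kb on each side (vertical axis) for each gene, with the control list as the left bar and the Ngn3-OE list as the right bar of each pair. Grey parts are peaks found in both lists, and the coloured parts show the 7 control-only peaks at Trpm1 and the 10 Ngn3-OE-only peaks at Lhx4.

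The position of the one-library peaks relative to start sites also differed between the libraries. Membership itself rested on position near genes, so shares of all peaks, which include regions far from genes, are not a like comparison here. Of the 30 Ngn3-OE-only peaks, 13 lay within 3 kb of a transcription start site of any gene (43.3%, 27.4 to 60.8), at 8 of the 10 genes, beside 21.3% of all Ngn3-OE-only peaks. Of the 24 control-only peaks, 2 did (8.33%, 2.32 to 25.8), beside 20.0% of all control-only peaks. Shared peaks of the 10 genes lay near start sites at 50.5% (40.6 to 60.5) beside 34.4% of all for the control list. For Ngn3-OE the shares were 49.5% (39.5 to 59.4) beside 34.3%. These higher shares cannot be told apart from the rule for membership, which placed the windows around genes. The difference between the Ngn3-OE-only and control-only shares was 35 percentage points (11.3 to 53.5). Start sites of the bipolar cell genes themselves accounted for 10 of the 13, at 6 genes, and for 1 of the 2. This division was noticed in the data and was not among the planned comparisons.

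The strengths of the peaks shared by both libraries were compared by rank. The rank percentile of a shared control peak was subtracted from that of its Ngn3-OE partner. The median shift was 1.07 percentiles (quartiles -4.35 and 10.3), beside 0.963 for all shared peaks. Its interval, which treats the 93 peaks as independent, ran from 0.33 to 3.91. The value depended on the window, with 3.91 in the gene bodies alone and 3.01 with 10 kb on each side. The rank was higher by 20 or more percentiles at 13 of the 93 peaks (14.0%, beside 16.0% of all) and lower by as much at 9 (9.68%, beside 10.5%). The median log2 ratio of tags, Ngn3-OE over control and scaled so that all shared peaks had a median of 0, was 0.10. The interval of this median, from -0.0931 to 0.206, included 0. The counting interval of this ratio lay above 0 at 2 of the 93 peaks, where 2.23% of all shared peaks do so. It lay below 0 at 4 of the 93, beside 3.2% of all. Of these 6 peaks 4 were at Irx6, 1 at Prdm8 and 1 at Lhx4. Over all shared peaks the ratio depended on control strength, with a median of 0.392 at 3 to 5 control tags and -0.0931 at 10 to 19. Higher ratios at weak control peaks were thus general.

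**Figure D3:**
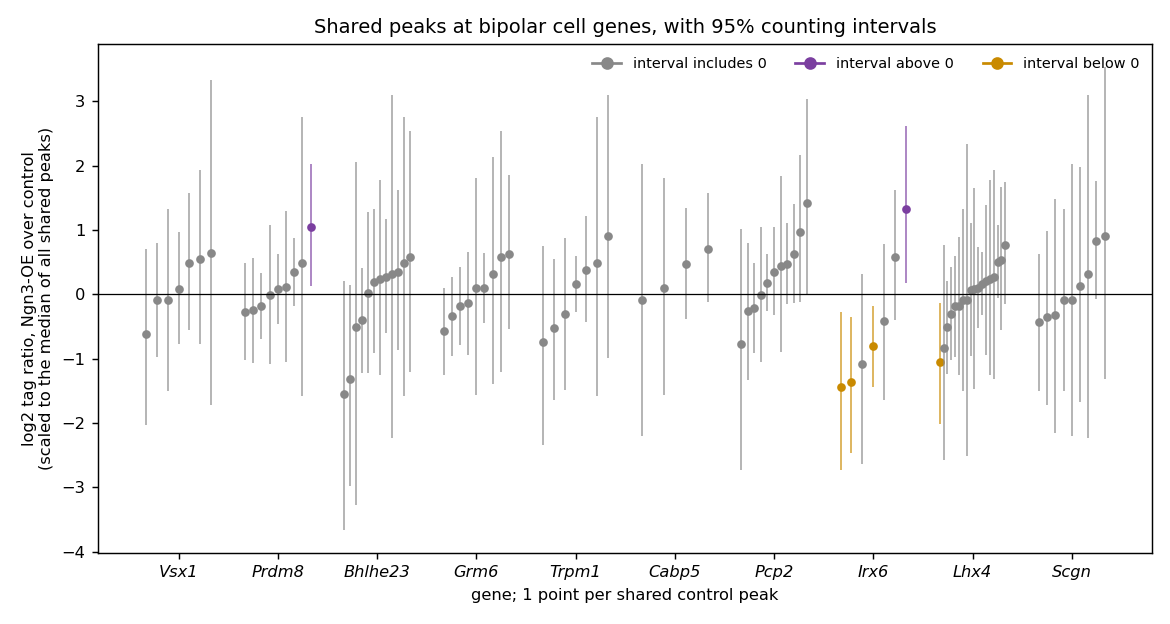
Log2 ratio of tags, Ngn3-OE over control (vertical axis), for each of the 93 shared control peaks, grouped by gene and sorted within it, with 95% counting intervals. Purple marks intervals above 0 and orange intervals below 0, and 5 of the 7 peaks at Irx6 lie below 0, 3 of them with the whole interval.

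Irx6, an Iroquois homeobox factor of OFF cone bipolar cells, was the only gene of the 10 whose shared peaks had a median rank shift below 0. The shift was -6.85 percentiles, the median log2 tag ratio was -0.81, and 5 of 7 peaks had a ratio below 0. The peak 649 bp upstream of the first start site (chr8:92673576-92673871) held 23 tags in control and 9 in Ngn3-OE, a log2 ratio of -1.45 (-2.74 to -0.28). A pair of intergenic peaks downstream of the gene, 46.9 and 49.2 kb from the nearest Irx6 start site, was lower as well. The first (chr8:92721661-92721881), the strongest of the window in both libraries, had 59 tags in control and 36 in Ngn3-OE (log2 ratio -0.81, -1.45 to -0.18), and the second (chr8:92723860-92724260) had 29 and 12 (-1.37, -2.47 to -0.35). These 3 ratios were near the 5th percentile of all shared peaks of like strength. That percentile was -1.38 at 20 to 39 control tags and -0.771 at 40 to 400. A peak 44.7 kb upstream had 14 tags in control and 7 in Ngn3-OE, with an interval of the log2 ratio from -2.64 to 0.31. The last peak with a ratio below 0, 3.26 kb upstream (chr8:92670949-92671109), had 15 and 12 tags (-0.42, -1.64 to 0.78).

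The other Irx6 peaks did not follow this direction. A control peak of 9 tags, 7.09 kb from the 5′ end of the gene (chr8:92681279-92681720), and its neighbour of 15 tags (chr8:92681799-92681990) were both joined to a single Ngn3-OE peak of 24 tags, so that their log2 ratios of 1.32 (0.17 to 2.61) and 0.58 (-0.40 to 1.62) rest on the same Ngn3-OE value. The Ngn3-OE list also had a peak of 9 tags inside the gene that was absent from the control list (chr8:92674627-92674700). It lay 171 bp upstream of the second annotated start site. A second Ngn3-OE-only peak, of 8 tags (chr8:92722778-92722844), lay between the downstream pair that was lower in Ngn3-OE. Within 1 kb of an Irx6 start site, control thus had 1 peak of 23 tags and Ngn3-OE had 2 peaks of 9 tags each.

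The sequences of the 3 Irx6 peaks whose intervals lay below 0 are shown because 3 of the 4 such peaks at the 10 genes were at Irx6. Here and below, letters are read 5′ to 3′ on the strand of the gene from the mouse assembly GRCm38.p6 (mm10), 100 bases on each side of the summit unless stated, with any exonic bases left off. Capitals mark matches on either strand to the motifs searched: CATCTG (an E-box of neurogenin factors), CCATTGT or CCTTTGT (SOX factors), GGATTA (OTX2 and CRX), TAATTA (VSX and LHX homeodomains) and CATATG (an E-box of BHLHE22 and BHLHE23). TAATTA and CATATG read the same on both strands. The promoter window (chr8:92673539-92673739, plus strand) held none of them. The window of the first downstream peak (chr8:92721652-92721852, plus strand) held CATCTG and GGATTA, both on the other strand and printed as CAGATG and TAATCC. The window of the second (chr8:92723951-92724151, plus strand) held TAATTA and, on the other strand, CCTTTGT.
Irx6 upstream peak: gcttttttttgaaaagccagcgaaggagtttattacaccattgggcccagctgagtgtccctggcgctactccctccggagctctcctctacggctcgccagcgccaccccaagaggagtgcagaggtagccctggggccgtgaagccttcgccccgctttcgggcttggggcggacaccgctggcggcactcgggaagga
Irx6 first downstream peak: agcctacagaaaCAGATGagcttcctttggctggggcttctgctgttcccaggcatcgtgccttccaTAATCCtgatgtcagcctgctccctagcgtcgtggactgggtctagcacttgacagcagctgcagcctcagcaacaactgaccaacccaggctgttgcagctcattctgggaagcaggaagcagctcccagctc
Irx6 second downstream peak: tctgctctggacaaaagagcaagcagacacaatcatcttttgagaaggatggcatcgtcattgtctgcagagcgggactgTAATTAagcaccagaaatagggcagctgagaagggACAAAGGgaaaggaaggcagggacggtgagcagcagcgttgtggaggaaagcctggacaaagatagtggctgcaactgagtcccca

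Lhx4 encodes a LIM homeodomain factor of cone bipolar cells and had the most peaks of the 10 genes, 23 in control and 28 in Ngn3-OE. At its start site the peak was alike in both libraries, with 31 tags in control and 29 in Ngn3-OE, 62 bp upstream (chr1:155742015-155742350). The strongest peak of the window, in an intron of the neighbouring Qsox1 (chr1:155777436-155777990), had 68 and 81 tags. The shared peak that was lowest in Ngn3-OE relative to control lay 48.6 kb upstream, within 3 kb of the start of the transcript Gm37539, and had 31 and 16 tags (log2 ratio -1.05, -2.02 to -0.13). The one whose rank was most raised in Ngn3-OE, in an intron of another gene beyond the 3′ end of Lhx4, had 16 and 29 tags (0.76, -0.16 to 1.74).

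Most Ngn3-OE-only peaks of Lhx4 lay inside the gene. By −log10 q, the first of all Ngn3-OE-only peaks at the 10 genes lay just upstream of the 5′ end of the longest Lhx4 transcript (chr1:155751715-155751789), with a value of 10.1. It had 10 tags, fewer than the 15 of an Ngn3-OE-only peak at Prdm8 (chr5:98170105-98170167). Inside the gene, a pair of neighbouring intronic peaks had 7 tags each (chr1:155729320-155729408 and chr1:155729570-155729657). The last with a −log10 q of at least 5, beyond the 3′ end of the gene, had 11 tags (chr1:155682308-155682397). In the opposite direction, the control list had a peak of 7 tags 1.01 kb inside the gene (chr1:155750640-155750805) that was missing in Ngn3-OE. The windows of the peak at the 5′ end (chr1:155751685-155751856, minus strand) and of the first intronic peak (chr1:155729254-155729454, minus strand) are given to show one-library peaks without and with a GGATTA match.
Lhx4 5′ peak: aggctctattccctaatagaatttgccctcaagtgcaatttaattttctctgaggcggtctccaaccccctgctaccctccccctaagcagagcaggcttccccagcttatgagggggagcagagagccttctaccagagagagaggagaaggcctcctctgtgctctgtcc
Lhx4 intronic peak: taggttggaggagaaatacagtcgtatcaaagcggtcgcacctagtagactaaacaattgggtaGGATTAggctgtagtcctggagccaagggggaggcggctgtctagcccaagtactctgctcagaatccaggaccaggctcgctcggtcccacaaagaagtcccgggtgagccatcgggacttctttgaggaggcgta

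Vsx1, a paired-like homeodomain factor of cone bipolar cells, had 2 further peaks near its start site in Ngn3-OE. The shared peak 1.01 kb upstream (chr2:150690306-150690526) had 14 tags in control and 21 in Ngn3-OE (log2 ratio 0.49, -0.55 to 1.58), and the peak 764 bp downstream of the start had 10 tags in each. These Ngn3-OE-only peaks lay 595 bp downstream and 2.42 kb upstream of the start, with 6 and 7 tags. The strongest control peak of the window, near the start of the neighbouring Acss1, had 24 tags in both libraries. None of the 7 control peaks was missing in Ngn3-OE.

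Prdm8, a PRDM factor needed for rod bipolar cells, had the strongest start-site peaks of the 10 genes. The peak 469 bp downstream of the first start (chr5:98167555-98167799) had 70 tags in control and 66 in Ngn3-OE, and the next one, at 1.5 kb (chr5:98168632-98168807), had 54 and 73 tags. The peak 1.09 kb upstream of the internal start site (chr5:98179799-98179924) had 15 tags in control and 33 in Ngn3-OE, a log2 ratio of 1.04 (0.12 to 2.03). The peak at the internal start itself, 173 bp upstream, had 34 and 30 tags, so that the difference was not shared by its neighbour. Beyond the 3′ end, peaks of 6 tags (chr5:98205566-98205669) and 7 tags (chr5:98216189-98216330) were control-only. Windows are shown for the peak with more tags in Ngn3-OE (chr5:98179787-98179987, plus strand) and for the stronger control-only peak (chr5:98216172-98216372, plus strand), and neither held any of the motifs.
Prdm8 internal peak: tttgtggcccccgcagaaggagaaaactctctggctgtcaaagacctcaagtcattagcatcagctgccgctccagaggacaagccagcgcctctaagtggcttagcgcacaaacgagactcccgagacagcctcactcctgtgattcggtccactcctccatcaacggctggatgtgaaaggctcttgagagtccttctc
Prdm8 control-only peak: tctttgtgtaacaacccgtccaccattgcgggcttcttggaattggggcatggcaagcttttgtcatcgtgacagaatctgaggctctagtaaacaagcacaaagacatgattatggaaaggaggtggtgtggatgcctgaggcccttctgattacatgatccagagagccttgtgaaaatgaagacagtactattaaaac

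Bhlhe23, a basic helix-loop-helix repressor needed for the maturation of rod bipolar cells, was the only gene of the 10 with no peak within 1 kb of its start site in either library. The nearest peak, 2.76 kb upstream (chr2:180779610-180779731), had 8 tags in control and 10 in Ngn3-OE. The 12 shared peaks of the gene had a median rank shift of 3.09 and a median log2 tag ratio of 0.21. The ratio was above 0 at 8 of them and below 0 at 4, and 2 rose and 2 fell by 20 or more percentiles. Farther upstream, a pair of peaks was lower in Ngn3-OE. The one at 12.1 kb (chr2:180788856-180789146) had 14 tags in control and 6 in Ngn3-OE, and the one at 15 kb (chr2:180791832-180791921) had 11 and 4. The rank of the second was lower by 50.4 percentiles, the largest shift in either direction among the 93 shared peaks, but its log2 ratio of -1.55 had an interval from -3.66 to 0.20. The 3 control-only peaks of this gene had 3 to 5 tags. The window of the peak at 15 kb (chr2:180791803-180792003, minus strand) held none of the motifs.
Bhlhe23 upstream peak: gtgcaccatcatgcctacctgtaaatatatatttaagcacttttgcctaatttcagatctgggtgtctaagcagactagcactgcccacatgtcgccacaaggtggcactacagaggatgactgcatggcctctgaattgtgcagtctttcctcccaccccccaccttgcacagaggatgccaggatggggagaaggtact

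Among the genes of the ON pathway, Grm6, which encodes mGluR6, had similar peaks at its start in both libraries. Within 1 kb of a start site the strongest peak had 7 tags in control and 8 in Ngn3-OE. The peak 2.28 kb upstream (chr11:50848348-50848458) had 11 and 18 tags (log2 ratio 0.62, -0.54 to 1.85). A control-only peak of 7 tags lay 3.41 kb upstream (chr11:50847209-50847311), and an Ngn3-OE-only peak of 7 tags lay 57.4 kb downstream in the promoter region of another gene (chr11:50908303-50908366). The strong peaks of this window, with 57 tags in control and 65 in Ngn3-OE at the highest, lay at start sites of zinc finger genes.

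Trpm1, the channel of the ON pathway, had fewer peaks in Ngn3-OE than in control, 8 against 14. The peak at its second group of start sites, 79 bp upstream (chr7:64185170-64185549), had 11 tags in control and 7 in Ngn3-OE (log2 ratio -0.75, -2.35 to 0.75). The intronic peak 9.72 kb from the first group of starts (chr7:64163516-64163757) had 23 and 32 tags. The 7 control-only peaks held 3 to 7 tags, 4 of them inside the gene, and the strongest (chr7:64179445-64179530) had the same −log10 q of 6.81 as the strongest one at Prdm8. The highest peak of the window, 84 tags in control and 100 in Ngn3-OE, was at the start of the neighbouring Mtmr10. The window of the strongest control-only peak (chr7:64179375-64179575, plus strand) held none of the motifs.
Trpm1 control-only peak: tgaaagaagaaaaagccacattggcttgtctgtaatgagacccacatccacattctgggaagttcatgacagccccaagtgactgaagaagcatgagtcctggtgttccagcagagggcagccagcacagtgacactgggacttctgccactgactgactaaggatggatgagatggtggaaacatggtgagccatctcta

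Pcp2, a modulator of G protein signalling in rod and ON bipolar cells, had the largest gain in rank of the 93 shared peaks at its start site. The peak 109 bp upstream (chr8:3625632-3625696 in control) had 11 tags in control and 23 in Ngn3-OE, and its rank percentile went from 20.0 to 67.0. The log2 ratio was 0.97 with an interval from -0.12 to 2.16. A peak 36.6 kb upstream, 1148 bp from the start of another gene (chr8:3662104-3662230), had 6 and 17 tags. The window of Pcp2 holds start sites of 8 other coding genes, and the strongest peak, 82 tags in control and 99 in Ngn3-OE, lay at the start of Pet100. The sequence around the summit of the start-site peak in Ngn3-OE (chr8:3625607-3625778, minus strand) held CATCTG on the other strand, printed as CAGATG.
Pcp2 start-site peak: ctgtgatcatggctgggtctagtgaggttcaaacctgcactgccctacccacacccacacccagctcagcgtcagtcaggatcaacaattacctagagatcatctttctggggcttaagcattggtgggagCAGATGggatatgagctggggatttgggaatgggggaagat

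Cabp5 and Scgn, both encoding calcium-binding proteins, had a start-site peak in Ngn3-OE only. Of all 21911 coding genes, 1.52% had a peak within 1 kb of a start site in Ngn3-OE and not in control, and 1.13% had one in control and not in Ngn3-OE. No bipolar cell gene was of the second kind. The Cabp5 peak (chr7:13398100-13398243) had 7 tags and a −log10 q of 6.88, with its summit 3 bp from the first start. The Scgn peak (chr13:23991125-23991288) had 8 tags and a −log10 q of 6.08, with its summit 15 bp upstream of the start. Both were below the median of 9 tags of the whole list. With start-site peaks at 7 of the 10 genes in control and 9 in Ngn3-OE, the shares of all coding genes were 64.7% and 65.1%.

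**Figure D4:**
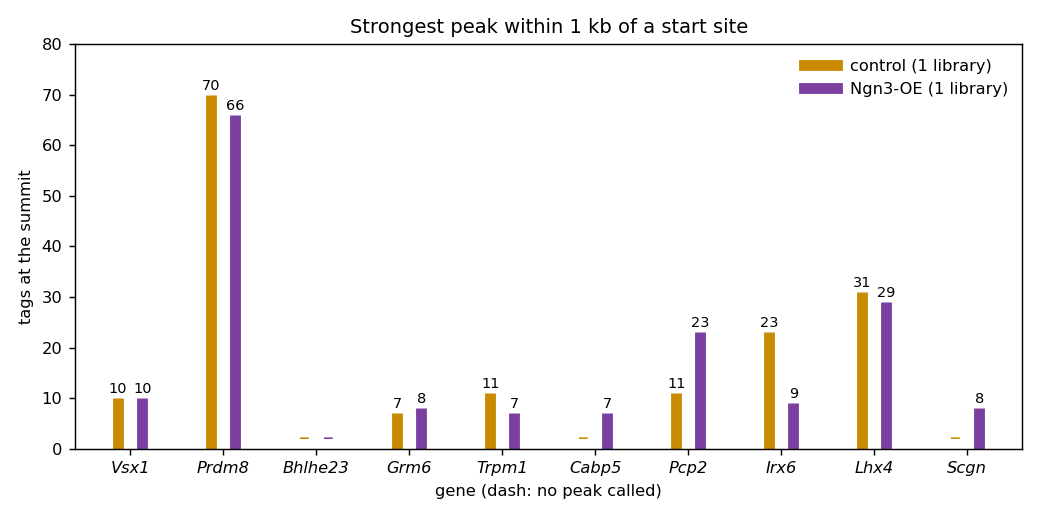
Tags at the summit of the strongest peak within 1 kb of a start site (vertical axis) for each gene, in control (orange) and Ngn3-OE (purple), with 1 library per group and a dash where no peak was called. Cabp5 and Scgn show a bar in Ngn3-OE alone, of 7 and 8 tags, and Bhlhe23 shows none.

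The bases before these start sites are shown because they lie at the peaks that control lacked. They were taken from RefSeq promoter entries, which were present for 9 of the 10 genes, and cover chr7:13397905-13398131 on the plus strand for Cabp5 and chr13:23991215-23991464 on the minus strand for Scgn. The Cabp5 sequence held GGATTA at 2 places, both on the other strand and printed as TAATCC, the second inside the called peak. The Scgn sequence held none of the motifs. Among all 32851 promoter entries on the same stretch, 6.25% held GGATTA.
Cabp5 promoter: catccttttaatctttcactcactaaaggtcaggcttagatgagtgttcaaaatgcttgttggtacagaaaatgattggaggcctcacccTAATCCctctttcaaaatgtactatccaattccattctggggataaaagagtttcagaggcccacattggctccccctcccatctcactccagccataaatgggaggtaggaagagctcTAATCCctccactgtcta
Scgn promoter: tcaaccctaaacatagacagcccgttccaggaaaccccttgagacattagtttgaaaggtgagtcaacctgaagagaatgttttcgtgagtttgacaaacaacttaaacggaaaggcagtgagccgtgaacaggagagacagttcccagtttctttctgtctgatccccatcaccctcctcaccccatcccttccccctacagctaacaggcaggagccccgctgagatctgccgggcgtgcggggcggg

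Several further peaks of the calcium-binding genes held more tags in Ngn3-OE, with intervals that included 0. At Cabp5 the peak in a noncoding exon segment near the 3′ end (chr7:13408355-13408606) had 20 tags in control and 35 in Ngn3-OE (log2 ratio 0.71, -0.12 to 1.58), and an intergenic peak 33.3 kb from the nearest Cabp5 start had 21 and 31. At Scgn an intergenic peak 39 kb downstream of the nearest Scgn start (chr13:23928125-23928429) had 17 and 32 tags (0.82, -0.07 to 1.76). The peak 3.26 kb upstream of Scgn had 19 tags in control and 15 in Ngn3-OE. Away from its start site Scgn had Ngn3-OE-only peaks of 8 tags at chr13:23940557-23940662, downstream of the gene, and at chr13:24040306-24040430, 49.2 kb upstream. The window of the downstream peak (chr13:23940493-23940693, minus strand) held GGATTA and CATATG.
Scgn downstream peak: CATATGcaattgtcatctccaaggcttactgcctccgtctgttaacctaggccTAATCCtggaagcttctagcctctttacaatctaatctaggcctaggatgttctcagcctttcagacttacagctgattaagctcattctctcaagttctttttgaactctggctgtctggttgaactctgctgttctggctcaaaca

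Motif matches within 100 bp of the summit were counted over the 147 distinct peaks of the 10 genes and over all 150435 peaks of both lists. GGATTA was found at 19.7% (14.1 to 26.9) beside 15.2% of all peaks, CATCTG at 23.8% (17.6 to 31.3) beside 22.2%, and the SOX motifs at 10.2% (6.28 to 16.2) beside 8.32%. TAATTA was found at 6.12% beside 7.94% and CATATG at 2.04% beside 4.23%. For none of the 5 motifs did the interval of the difference from all peaks leave out 0 at this window. At other windows some did. The GGATTA share was above that of all peaks by 5.3 points (0.195 to 12.1) within 50 bp and by 8.87 points (1.87 to 16.8) within 250 bp, and the TAATTA share within 250 bp differed by -6.06 points (-9.99 to -0.107).

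Motif shares of shared and one-library peaks were set beside those of all peaks of the same class. The SOX motifs were found at 7 of 24 control-only peaks (29.2%, 14.9 to 49.2), beside 12.3% of all control-only peaks, and at 1 of 30 Ngn3-OE-only peaks (3.33%), beside 6.64% of all. At shared peaks they were found at 7 of 93 (7.53%), beside 7.84% of all. Trpm1 held 3 of the 7, and without this gene 4 of 17 control-only peaks had the motif (23.5%, 9.56 to 47.3). GGATTA occurred near 10 of the 30 Ngn3-OE-only summits (33.3%, 19.2 to 51.2), beside 20.0% of all such peaks, and at 2 of 24 control-only peaks (8.33%), beside 9.89% of all. At shared peaks GGATTA was found at 17 of 93 (18.3%), beside 15% of all. Lhx4 held 4 of these 10, and 6 of 20 remained without it (30.0%, 14.5 to 51.9). CATCTG occurred near 4 of the 30 Ngn3-OE-only summits (13.3%, 5.31 to 29.7), beside 25.3% of all, and near 28 of the 93 shared summits (30.1%, 21.7 to 40.1), beside 21.6%, a difference of 8.49 points (0.107 to 18.5). Between Ngn3-OE-only and control-only peaks of the 10 genes, the shares differed by -25.8 points (-46.0 to -6.31) for SOX and by 25 points (2.51 to 43.9) for GGATTA. In all 20 such differences were computed, of which 4 had an interval that left out 0, and the intervals were not adjusted for their number.

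**Figure D5:**
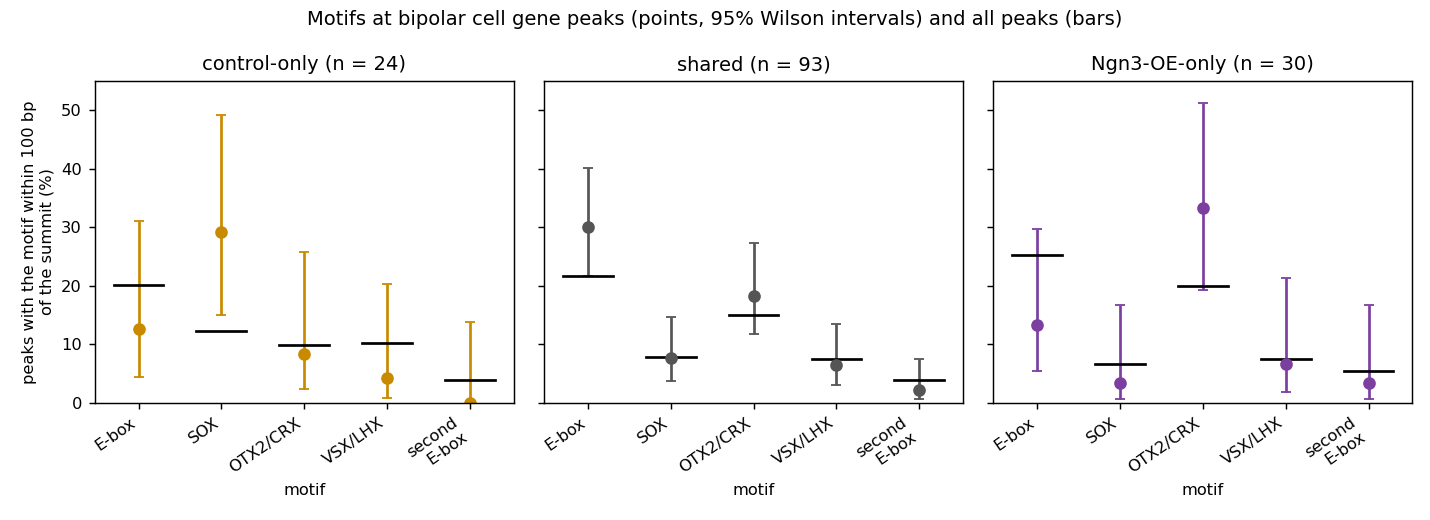
Percent of peaks with each motif within 100 bp of the summit (vertical axis) for control-only, shared and Ngn3-OE-only peaks of the 10 genes, as points with 95% Wilson intervals. Black bars give the share over all peaks of the same kind, and the SOX point of the control-only panel, at 29.2%, lies with its whole interval above its bar of 12.3%. Without Trpm1 this share was 23.5% (9.56 to 47.3), an interval that includes 12.3%.

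The same windows were read for 20 other genes of bipolar cells and for 10 genes each of rods and Müller glia. At the other bipolar cell genes 53 of 272 control peaks were control-only (19.5%) and 74 of 293 Ngn3-OE peaks Ngn3-OE-only (25.3%), and the median rank shift was 1.75. Otx2, a homeodomain factor of photoreceptors and bipolar cells, had a median shift of 15.1. Rod genes had a median shift of 2.86 and Müller glia genes of 0.70, beside 1.07 at the 10 bipolar cell genes. Ranks were lower by 20 or more percentiles at 3.57% of shared peaks of rod genes, at 9.68% of the bipolar cell genes and at 15.7% of the Müller glia genes. For these measures the 10 bipolar cell genes stood between rod and Müller glia genes, but the differences of 6.11 points from rod genes (-0.271 to 14.1) and of -6.06 points from Müller glia genes (-15.3 to 3.5) had intervals that included 0. The share of ranks higher by 20 or more percentiles was 14.0% at the 10 bipolar cell genes, beside 17.8% at the 20 other bipolar cell genes, 16.4% for rods and 14.8% for Müller glia. Their one-library shares of 20.5% in control and 24.4% in Ngn3-OE were above those of rod genes (15.7% and 22.6%) and of Müller glia genes (17.6% and 23.6%). The intervals of all these differences included 0.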

How the data were processed

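One control and one Ngn3-OE ATAC-seq library were used. The authors trimmed reads with Trimmomatic, aligned them to mm10 with Bowtie2, removed duplicates, mitochondrial and blacklisted reads, kept fragments up to 120 bp, shifted ends by 4 bp forward and 5 bp back, and called peaks in each library with MACS2 at a q-value limit of 0.05. Only nucleosome-free DNA is thus mapped. Each deposited list gives a score, a fold enrichment ratio over background, the p-value and q-value (both as −log10) and the summit offset, without normalisation between libraries.

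Lines with equal intervals were merged, and 159 control and 150 Ngn3-OE lines on other sequences than the assembled chromosomes were dropped. The pileup at each summit was solved from the deposited fold enrichment and −log10 p and came out whole for 100% of peaks (residual under 0.01). Tag extension is not given in the sources used here. Read depth is unknown from these values, and tags were scaled by the median ratio of all shared peaks, a log2 shift of 0.0931. The partner of a shared peak was the overlapping peak (1 bp or more) with the highest −log10 q. Genes came from GENCODE M21, with promoters within 3 kb of a start site and start-site distances from the basic set.

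Peaks were named at start sites (3 kb), as the strongest of a window, as one-library peaks with a −log10 q of at least 5, or as the shared peak of each gene whose rank moved most among those at 5 or more in both lists. Others were named after their values were seen (the Irx6 peaks beside the upstream one, the Bhlhe23 pair, the Pcp2 start-site peak, weaker one-library peaks, and the sequences of Irx6, Prdm8, Lhx4 introns and Scgn). Genes, lists and motifs were chosen with earlier results of these data known. Wilson intervals, Newcombe intervals for differences and exact intervals for tag ratios were computed in Python 3.11.15 with scipy 1.17.1, after the overlap and pileup steps were tested on simulated data. The intervals of the medians over shared peaks end at values of single peaks and treat the peaks as independent. Neighbouring peaks are not independent. The authors' differential regions were not used.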

Additional observations from a re-analysis of the deposited data

How the results depend on the processing

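No paired analysis was possible because each group had 1 library, and for the same reason no replicate could be left out. The numbers of peaks followed the window: 33 control and 37 Ngn3-OE peaks in the gene bodies alone, 59 and 64 with 10 kb on each side, and 73 and 78 when the nearest coding start had to be the member's. One-library shares were 30.3% and 37.8% in the gene bodies alone and 29.9% and 33.3% when at least 50% of both peaks had to overlap. At a −log10 q of at least 5 in the queried list they were 6.25% and 11.8%, and with that limit in both lists the control share was 12.5%. Among the 50000 strongest peaks of each list the Ngn3-OE share was 11.1% and the control share 15.8%, which turned the order of the shares. The median log2 tag ratio was 0.21 with scaling by the lowest background. For TAATTA the difference from all peaks was -6.06 points (-9.99 to -0.107) with 250 bp on each side. The median rank shift was 3.91 in the gene bodies alone, 3.01 with 10 kb on each side, 3.09 by the nearest coding start, 0.878 at a −log10 q of at least 5 and 0.738 when ranked by fold enrichment, beside a reported 1.07 (0.33 to 3.91). These and the rest of 105 summary values stayed within the 95% interval of the reported value, its ends included, or within 1.5 times for numbers of peaks and genes. No median or motif difference changed sign under the alternatives run. With each gene left out in turn, control-only shares ran from 16.5% to 21.8%, Ngn3-OE-only shares from 21.1% to 26.4%, and the median rank shift from 0.999 to 1.38. Peaks of 3 to 15 tags carry wide counting error, so a one-library peak need not differ in accessibility between the libraries.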
